A study of Mus musculus with 6 samples.

Results

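Malat1 and Neat1, neighbouring genes of long non-coding RNAs on chromosome 19, were examined for where their capped RNAs start. Both were chosen by name, as 2 of 55450 annotated genes, and every tag from 2 kb upstream of each gene to its 3′ end was taken on both strands in all 6 libraries. The data were CAGE, in which capped RNAs are caught and short tags are read from where they begin, so that the count at a genomic position says how many tags began there. The RNA was nuclear and was primed at random. The mESC group held 3 libraries of R08, a mouse embryonic stem cell line grown without feeder cells in serum with leukemia inhibitory factor. The mOPC group held 3 libraries of oli-neu, a line derived from mouse oligodendrocyte progenitor cells and expanded in a medium with N2 supplement, T3, L-thyroxine, bFGF and PDGF-BB. Each group is therefore 1 cell line, and no source used here says whether its libraries came from separate cultures, so that p-values measure the spread between these libraries, which may be technical. The libraries of a cell type also shared 1 library label that differed between cell types, so that preparation and cell type cannot be told apart.

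Malat1 is a nuclear RNA of splicing speckles, and Neat1 is the RNA around which paraspeckles assemble. Neither ends like a usual messenger RNA. RNase P cuts the nascent Malat1 transcript upstream of a tRNA-like stretch, which leaves a 3′ end stabilized by a triple helix, and tRNase Z trims the released piece to mascRNA. Neat1 is made as a short polyadenylated isoform and as a long isoform that shares its start and is cut by RNase P, and only the long isoform can build paraspeckles.

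The libraries held between 16657021 and 40928704 tags. The labels held up against the marker genes. All 8 mESC markers were lower in mOPCs, and their summed level fell from between 2853 and 3188 CPM (the tag count scaled to the total tags of the library) to between 0.798 and 1.14, where Pou5f1, Zfp42, Dppa5a, Tdgf1 and Tcl1 had no tag. All 8 mOPC markers were higher, from between 18.3 and 20.02 CPM to between 1521 and 1622, although Nkx2-2 reached only 0.633 CPM and Pdgfra 13.1 CPM in mOPCs. Replicates are named by their number within a cell type, and values of 3 libraries are given in that order.

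On mm10 coordinates, GENCODE places Malat1 at chr19:5795690-5802672 and Neat1 at chr19:5824708-5845478, both on the minus strand, with 22035 bp between them. Malat1 is annotated with 6983 bp and Neat1 with 20771 bp. The short Neat1 isoform is annotated at chr19:5842307-5845476, at the 5′ end of the gene. Upstream of Neat1 lies Frmd8os at chr19:5845623-5851388, an antisense gene read in the opposite direction. Inside Malat1 the unclassified gene Gm37376 is annotated on the opposite strand at chr19:5801941-5802393, and mascRNA lies at chr19:5795924-5795981 near the 3′ end.

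The stretch around the Malat1 start is shown because 1 of its bases carried most tags of the gene. It is the RefSeq promoter of GRCm38.p6 at chr19:5802623-5802922, minus strand, written 5′ to 3′. The capitals mark the counted base with the bases before and after it.
Malat1 promoter: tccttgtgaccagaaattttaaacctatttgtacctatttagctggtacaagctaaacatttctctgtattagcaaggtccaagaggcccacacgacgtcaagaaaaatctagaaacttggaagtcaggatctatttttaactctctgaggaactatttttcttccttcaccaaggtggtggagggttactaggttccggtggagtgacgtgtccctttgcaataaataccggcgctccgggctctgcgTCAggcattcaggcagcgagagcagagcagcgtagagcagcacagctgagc

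For Neat1 the first bases of the transcript in GENCODE vM21 are given, chr19:5845379-5845478, minus strand. The capital marks annotated base 1, the base after the position with the most tags.
Neat1 first bases: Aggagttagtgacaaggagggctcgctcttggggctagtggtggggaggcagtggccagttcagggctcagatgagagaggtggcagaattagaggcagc

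In the Malat1 promoter the AT-rich hexamer AATAAA was found on the strand of the gene 29 to 24 bases upstream of the dominant start. It occurred on either strand in 19.5% of 32544 promoters of the same length. TGACG, the core of the site of cAMP response element binding factors, was found on the strand of the gene 45 to 41 bases upstream. On the opposite strand it occurred 154 to 150 bases upstream and again across the start itself, and 20.9% of promoters held it. None of these matches overlapped another. The letters TATAAA were not found in this window on either strand, and 13.6% of promoters held them. Nor were CCAAT, which 37.4% of promoters held, and GGGCGG, which 35.9% held.

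At Malat1 the position with the most tags was chr19:5802672 in all 6 libraries, which is base 1 of the annotated gene. It held 215210, 82871 and 122998 tags in mESCs and 1251672, 1552887 and 2421899 tags in mOPCs. All mOPC libraries lay far above all mESC libraries. This 1 base took 0.568%, 0.498% and 0.667% of the mESC libraries and 5.71%, 5.38% and 5.92% of the mOPC libraries. No other position of the genome held more tags, except in mESC library 2, where another position with 84655 tags ranked above it.

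Tags within 500 bp of the dominant start are called start tags here. The dominant base held 72.4%, 74.9% and 72.6% of the Malat1 start tags in mESCs and 76.6%, 75.5% and 74.6% in mOPCs. The cell types overlapped in this share (73.3% ± 1.38 against 75.6% ± 0.986, SD, n = 3 each; two-sided exact permutation p = 0.2). The least precise of these shares, in mESC library 2, had an exact 95% binomial interval from 74.6% to 75.1%, which covers counting error only. The base just upstream held the next most, with 19.1% ± 1.10 of start tags in mESCs and 17.6% ± 0.814 in mOPCs, again overlapping. Whether tags at such a neighbouring base mark a separate start was not tested. Within 5 bp lay 97.9% and 98.1% of start tags, and the stretch between the 0.1 and 0.9 quantiles of the start tags was 2 bases wide in every library.

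At Neat1 an even larger share of start tags fell on 1 base. The dominant position was chr19:5845479 in all 6 libraries, 1 base upstream of the GENCODE gene and inside the RefSeq gene, which begins at 5845480. It held 20140, 10417 and 11096 tags in mESCs and 361411, 420238 and 593716 in mOPCs, without overlap. Among all positions of a library it ranked 51, 34 and 35 in mESCs and 2, 2 and 3 in mOPCs. Its share of the library was 0.0532%, 0.0625% and 0.0602% in mESCs and 1.65%, 1.46% and 1.45% in mOPCs.

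Of the Neat1 start tags, 84.5% ± 0.723 lay at the dominant base in mESCs and 83.5% ± 0.272 in mOPCs (SD, n = 3 each), which did not overlap by a small margin. Within 5 bp lay 93.8% ± 0.446 and 96.2% ± 0.167, less than at Malat1. At Neat1 the base with the next most start tags lay 2 bases upstream rather than 1. It held 3.90%, 4.17% and 3.80% of start tags in mESCs and 7.57%, 7.10% and 6.89% in mOPCs. These shares did not overlap, and the exact permutation p of 0.1 is the smallest that 3 libraries against 3 allow. At the base 1 upstream the shares overlapped, with 1.48% ± 0.185 and 1.27% ± 0.0287.

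**Figure D1:**
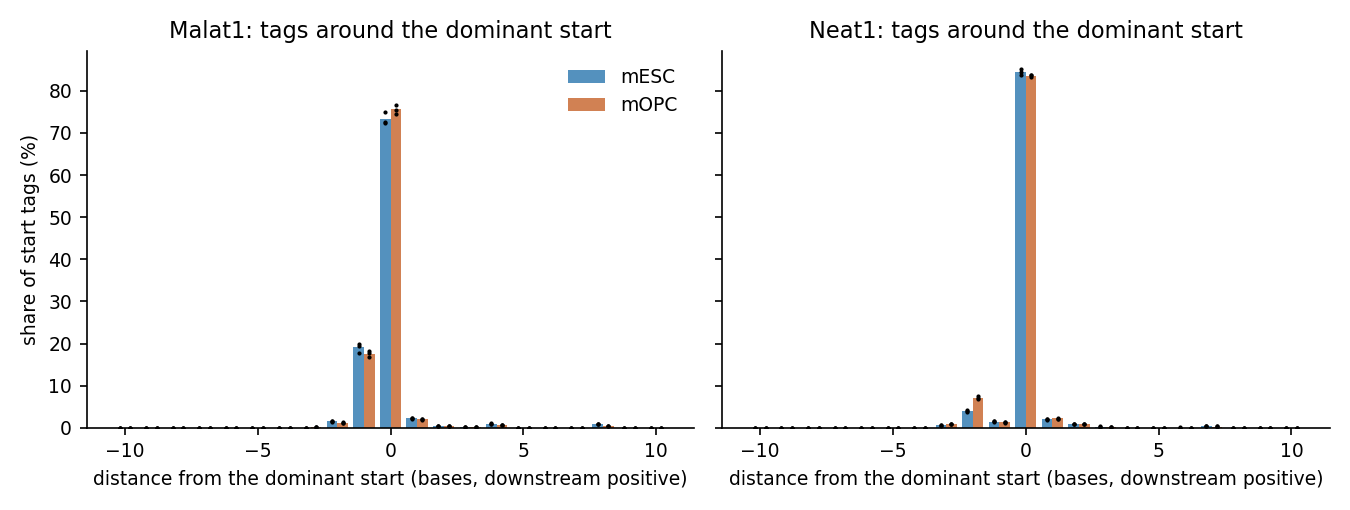
Share of the start tags (%) at each base from 10 upstream to 10 downstream of the dominant start, for Malat1 (left) and Neat1 (right). Bars are means of 3 libraries and points single libraries. At Malat1 the base with the next most start tags lies 1 base upstream, with 19.1% in mESCs and 17.6% in mOPCs. At Neat1 it lies 2 bases upstream and holds 3.96% in mESCs and 7.19% in mOPCs.

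At both genes the counted base was followed by an A. At Malat1 the counted base was a C, so that a pyrimidine and a purine, the step at which RNA polymerase II usually starts, lay at the counted base and the base after it. The same held for 88.0% of 7073 promoters with at least 100 tags at their dominant position in mESCs and for 88.5% of 7702 in mOPCs. The step ended at the counted base itself in 1.34% and 1.23% of them. At most promoters the deposited position thus lay 1 base before the purine, and whether this is a matter of the coordinates was not tested. With every position moved 1 base downstream, the dominant Neat1 start falls on annotated base 1, and the main Malat1 start on base 2.

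This offset decides how many tags an annotation catches. As deposited, 92.6% ± 0.638 of the sense tags of the Neat1 locus in mESCs and 91.1% ± 0.263 in mOPCs lay outside the annotated gene. Only 1968, 836 and 990 tags in mESCs and 39006, 45659 and 67618 in mOPCs lay inside it. With positions moved by 1 base the outside shares were 9.99% and 10.5%. For Malat1 the outside share was 19.9% ± 1.22 and 17.9% ± 0.785 as deposited and 1.60% and 1.35% after the move. Over 2173 other genes longer than 2000 bp with at least 1000 start tags in each library, the median outside share was 3.38% in mESCs and 3.10% in mOPCs, and 27 and 16 of them lay above Neat1.

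Against the same 2173 genes both starts were sharp. The dominant base of a gene held a median of 19.8% of its start tags in mESCs and 19.2% in mOPCs. For Malat1 98.2% and 98.6% of these genes lay below its share, and for Neat1 99.4% in both. Among the 35 other long non-coding RNA genes of this set the medians were 28.6% and 27.1%, and 4 and 2 genes lay above Malat1, 2 and 2 above Neat1. By level, none of the 2173 genes exceeded Malat1 in either cell type, whereas 71 exceeded Neat1 in mESCs and 0 in mOPCs.

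Both RNAs were more abundant in the nuclear RNA of mOPCs. In these bulk samples, fewer cells that make an RNA and less RNA per cell cannot be told apart. Start tags of Malat1 came to 7848, 6646 and 9194 CPM in mESCs and 74568, 71305 and 79334 CPM in mOPCs. For Neat1 they were 634, 734 and 714 CPM against 19804, 17403 and 17337 CPM. The mOPC values lay above all mESC values at both genes.

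In the fit over 19838 genes, start tags of Malat1 rose by 3.20 on the log2 scale (SE 0.102; edgeR quasi-likelihood test, Benjamini-Hochberg adjusted p = 9.93e-36). Neat1 rose by 4.66 (SE 0.102; edgeR, adjusted p = 1.25e-49). In the same fit 42.1% of genes were called higher in mOPCs, and the median over all genes was −0.21. A rise as such was therefore common, and 13.7% of genes rose more than Malat1 and 9.22% more than Neat1. Neat1 start tags per 100 Malat1 start tags went from 8.08, 11.04 and 7.76 to 26.6, 24.4 and 21.9, without overlap (exact permutation p = 0.1).

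Counted over the annotated gene, as a gene table would, the sense tags of Malat1 rose by 3.19 (SE 0.105; edgeR, adjusted p = 7.87e-47) and those of Neat1 by 4.89 (SE 0.0990; edgeR, adjusted p = 8.95e-64). Of 18850 genes tested on sense tags, 44.6% were called higher and 46.0% lower. The Neat1 value was 4.69 when genes were extended 2000 bp upstream and 4.61 after the move of 1 base. The whole Malat1 locus, with its upstream stretch, took 0.824% ± 0.132 of an mESC library and 7.97% ± 0.421 of an mOPC library. For the Neat1 locus the shares were 0.0709% ± 0.00520 and 1.88% ± 0.141.

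**Figure D2:**
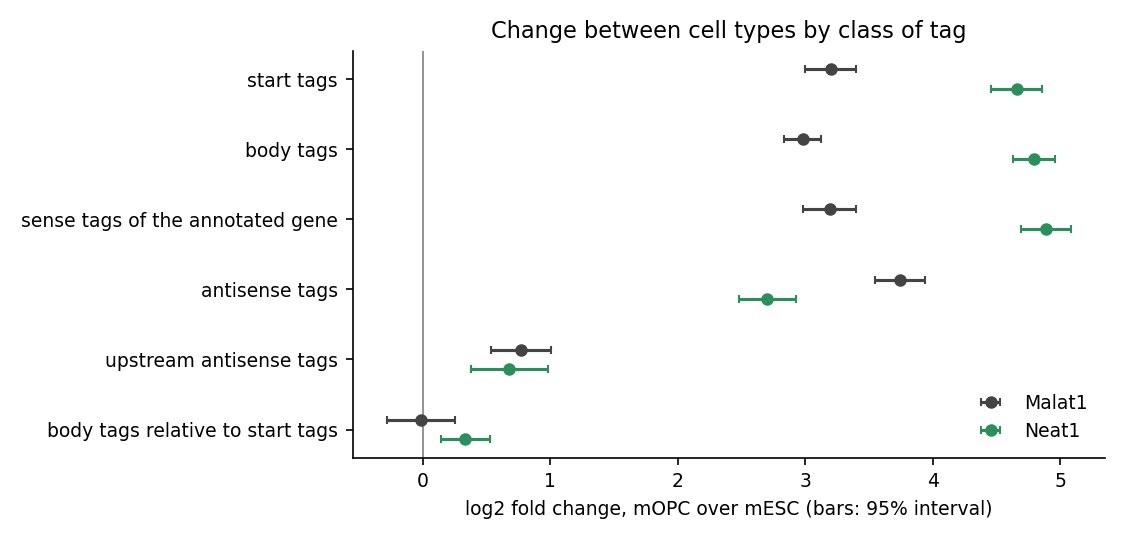
Log2 fold change of mOPCs over mESCs for each class of tag of Malat1 and Neat1, with 95% intervals from the edgeR fits over 3 libraries per cell type. Start, body and sense tags rose by between 2.98 and 4.89, upstream antisense tags by 0.77 and 0.68, and the Malat1 value of body relative to start tags lies at −0.01. Apart from body relative to start tags, each class was scaled on its own, so that values of different classes are not on a common scale. In CPM the Malat1 start tags rose 9.51 times and its body tags 13.4 times.

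Tags more than 500 bp from the dominant start, on the strand of the gene and inside it, are called body tags. Malat1 had 13565, 4781 and 7054 of them in mESCs and 98161, 128854 and 195971 in mOPCs. They made up 4.36%, 4.14% and 3.996% of the locus in mESCs and 5.66%, 5.90% and 5.69% in mOPCs, a small part that was nevertheless larger in every mOPC library (exact permutation p = 0.1). They were spread widely, with tags in at least 1 library at 5293 of 6482 body bases (81.7%). Past the kilobase that holds the start, the density was highest in the third kilobase of the gene and lowest in the last bin. In mOPCs it was 657 CPM in the second kilobase, 1610 in the third, 708 in the next and 90.5 in the last bin, and in mESCs the same bins held 50.4, 84.4, 56.4 and 8.09 CPM.

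Within this spread a few single bases of Malat1 stood high in both cell types. Base 2360 of the gene (chr19:5800313) held 1179, 397 and 601 tags in mESCs and 16611, 18491 and 27169 in mOPCs. That is 8.51% ± 0.194 of all body tags in mESCs and 15.0% ± 1.64 in mOPCs. Base 4924 (chr19:5797749) held 871, 236 and 315 against 4645, 5469 and 8534 tags, or 5.27% ± 1.02 and 4.44% ± 0.256 of body tags. Of the 20 positions with the most body tags in each cell type, 17 were the same at Malat1.

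The surroundings of the 6 body positions with the highest mean CPM over all 6 libraries are shown for what they share. Each stretch of 41 bases is transcript sequence from GENCODE vM21 (GRCm38), named by the base of the gene, and the capitals mark the counted base and the 2 bases before it.
Malat1 body 2360: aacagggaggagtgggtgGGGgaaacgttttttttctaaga
Malat1 body 4924: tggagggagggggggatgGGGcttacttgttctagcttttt
Malat1 body 2882: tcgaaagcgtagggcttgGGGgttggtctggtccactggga
Malat1 body 4919: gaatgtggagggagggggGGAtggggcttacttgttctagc
Malat1 body 2678: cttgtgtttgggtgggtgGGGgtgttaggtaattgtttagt
Malat1 body 3296: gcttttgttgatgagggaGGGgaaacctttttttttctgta

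In 5 of the 6 the counted base and the 2 bases before it were all guanines. Over all Malat1 body tags this held for 36.4%, 36.5% and 32.0% in mESCs and 48.5%, 43.7% and 44.2% in mOPCs, whereas 1.90% of the bases of the body have such surroundings. This feature was seen in the sequences above, which were picked by a mean CPM in which the mOPC libraries weigh most. The shares are therefore a description and were not tested between cell types. Without these 6 positions, an alternative chosen after seeing the data, they were 20.2%, 21.8% and 17.6% in mESCs and 28.2%, 25.4% and 26.4% in mOPCs, with 1.82% of the remaining body bases. Over 207 other genes with at least 100 body tags and at least 1000 body bases the medians were 10.5% in mESCs and 17.7% in mOPCs, with a median of 1.05% of body bases. Of these genes, 99.03% and 100% lay below Malat1 with all its positions counted. Neat1 lay among them, with 9.96%, 15.8% and 8.13% in mESCs, 19.3%, 17.5% and 18.8% in mOPCs and 1.73% of its body bases. A guanine of any surrounding stood at the counted base of 58.7% ± 4.32 and 72.8% ± 3.19 of Malat1 body tags and of 37.8% ± 6.50 and 58.4% ± 2.66 of Neat1 body tags.

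**Figure D3:**
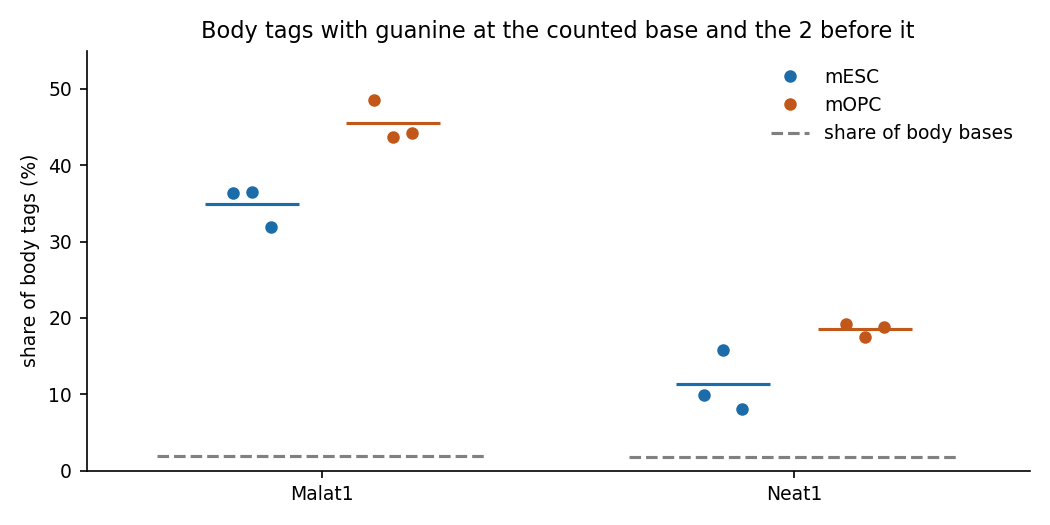
Share of body tags (%) that have guanine at the counted base and at the 2 bases before it, over all body positions. Points are libraries, solid lines the means of 3 libraries and dashed lines the share of body bases with such surroundings (1.90% at Malat1, 1.73% at Neat1). Malat1 lies between 32.0% and 48.5%, and Neat1 between 8.13% and 19.3%.

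Neat1 body tags were scarce in mESCs. There were 542, 202 and 283 of them in mESCs and 14513, 18803 and 26895 in mOPCs. At this depth about 80% of the Neat1 body positions in an mESC library held 1 tag (79.9%, 80.2% and 80.5%), so that single positions of mESCs carry little information. Body tags rose by 4.79 on the log2 scale at Neat1 (SE 0.0828; edgeR, adjusted p = 1.36e-83) and by 2.98 at Malat1 (SE 0.0741; edgeR, adjusted p = 1.14e-64). Of 14320 genes tested, 41.1% were called higher in mOPCs.

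The strongest Neat1 body positions were of another order than those of Malat1. Base 1266 (chr19:5844213), inside the short isoform, held 2, 1 and 3 tags in mESCs and 139, 155 and 244 in mOPCs. Bases 11679 and 11882 lie far beyond the short isoform, where only the long isoform is annotated. They held 0, 0 and 1 against 107, 172 and 269 tags and 0, 0 and 0 against 125, 156 and 220 tags. The 10 strongest positions of an mOPC library together took between 6.08% and 6.49% of its Neat1 body tags, compared with between 33.0% and 36.6% at Malat1. Of the 20 strongest positions in each cell type 3 were shared, but the mESC counts there are of a few tags. The surroundings of 4 of these positions follow in the same form as for Malat1.
Neat1 body 1266: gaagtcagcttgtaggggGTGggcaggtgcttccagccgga
Neat1 body 11679: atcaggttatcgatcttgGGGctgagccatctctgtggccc
Neat1 body 11882: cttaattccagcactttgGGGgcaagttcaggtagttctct
Neat1 body 18328: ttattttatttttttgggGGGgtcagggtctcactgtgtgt

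In 3 of these 4, all beyond the short isoform, the counted base and the 2 before it were guanines. Without the 4 positions the Neat1 shares were 9.67%, 15.9% and 7.89% in mESCs and 17.6%, 15.7% and 17.1% in mOPCs, which overlapped. The density of body tags was set against the end of the short isoform, since a tag beyond it can only come from the long one or from other RNA of the region. Inside the short isoform there were 3.17, 2.79 and 3.37 CPM per kb in mESCs and 79.4, 70.0 and 72.8 in mOPCs. Beyond it there were 0.331, 0.266 and 0.361 CPM per kb in mESCs and 25.6, 26.4 and 26.3 in mOPCs. In CPM, without the scaling of the fits, the density thus rose 23.8 times inside and 81.7 times beyond the short isoform. On this scale all Neat1 body tags rose 47.2 times.

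The density beyond over that inside was 0.105, 0.0955 and 0.107 in mESCs and 0.322, 0.378 and 0.361 in mOPCs, which did not overlap (exact permutation p = 0.1). Correspondingly 40.2% ± 1.44 of Neat1 body tags in mESCs and 69.9% ± 1.75 in mOPCs lay beyond the short isoform. The mESC density beyond it rests on 221, 78 and 117 tags. It was no higher than the 0.406 CPM per kb on the same strand between Malat1 and Neat1, more than 2 kb from both, where mOPCs had 0.246. In mESCs the long part thus held no more tags per kb than the stretch between the genes, whereas in mOPCs it held 26.1 against 0.246.

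The drop in mESCs did not fall exactly at the annotated end of the short isoform. The first 1000 bp past it held 1.04, 0.933 and 1.27 times the tags of the last 1000 bp inside it in mESCs and 0.538, 0.652 and 0.640 times in mOPCs. Beyond this first stretch the mESC libraries had 148, 50 and 84 tags in 16599 bases, or 0.230 ± 0.0471 CPM per kb, and the mOPC libraries 9355, 12693 and 17896 tags, or 26.2 ± 0.427 CPM per kb. In mOPCs the body then stayed covered to near its end, with 55.3 CPM in the kilobase that holds bases 11679 and 11882, 47.5 in the next, and 3.99 per kb over the last 772 bp.

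**Figure D4:**
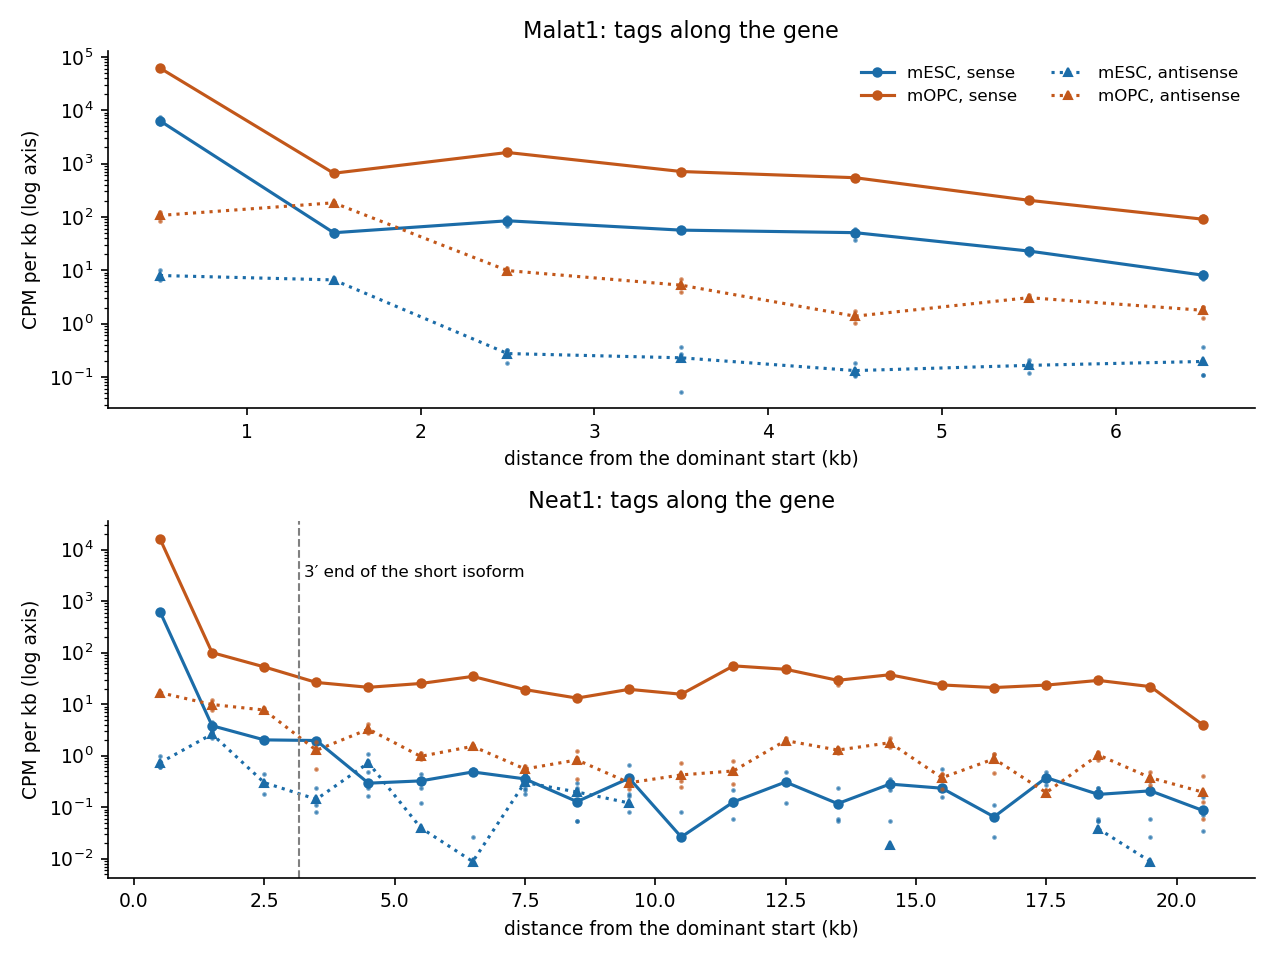
Tags per kilobase along Malat1 (top) and Neat1 (bottom) in bins of 1 kb from the dominant start, as CPM per kb on a log axis, for the strand of the gene (solid) and the opposite strand (dotted). Large symbols are means of 3 libraries and small points single libraries, and values of 0 are not drawn. The dashed line is the annotated 3′ end of the short Neat1 isoform. Past it, on the strand of the gene, mOPC means stay between 3.99 and 55.3 while mESC means fall below 0.5 after the first bin.

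**Figure D5:**
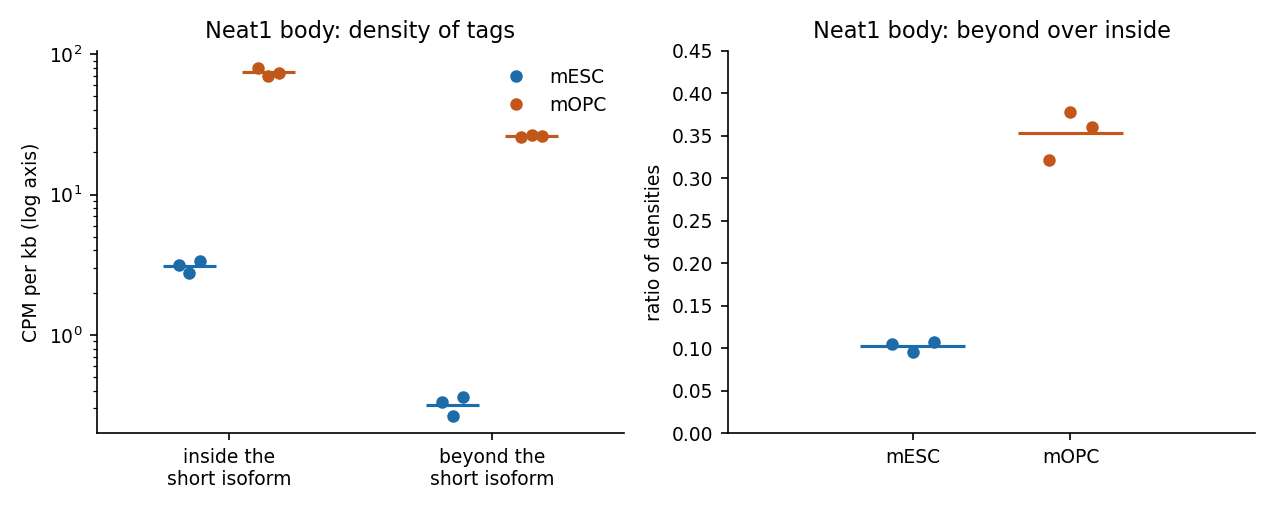
Density of Neat1 body tags (CPM per kb, log axis) inside and beyond the short isoform (left) and the ratio of the latter to the former (right). Points are libraries and lines the means of 3. The ratio lies between 0.0955 and 0.107 in mESCs and between 0.322 and 0.378 in mOPCs.

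Body tags were also set against the start tags of the same library. Malat1 had 4.56, 4.32 and 4.16 body tags per 100 start tags in mESCs and 6.00, 6.27 and 6.04 in mOPCs. Neat1 had 2.25, 1.65 and 2.15 against 3.34, 3.75 and 3.79. Both ratios were higher in every mOPC library (exact permutation p = 0.1 for each). The median of the 2173 other genes was 3.84 in mESCs and 7.88 in mOPCs. Per kilobase of gene Malat1 stood high, with 0.623 and 0.874 body tags per 100 start tags against medians of 0.102 and 0.211, and 95.2% and 95.9% of the genes lay below it. Neat1, with 0.0972 and 0.175, did not.

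In a fit of this ratio over 19667 genes with library as block, the change of Malat1 was −0.01 on the log2 scale (SE 0.137; edgeR, adjusted p = 0.976) and that of Neat1 0.33 (SE 0.0986; edgeR, adjusted p = 0.00175). In that fit 54.2% of genes were called and 33.4% were called higher in mOPCs, so that a call alone says little about Neat1. The values hang on the scaling between the classes of tag. With no scaling between them, an alternative chosen after seeing the data, they were 0.49 and 0.84 against a median over genes of 0.80. The calls then split into 8885 higher and 2887 lower, in place of 6560 and 4095. In the scaled fit the median gene was at 0.31. Neat1 lay close to the median gene under both scalings, and Malat1 below it.

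Antisense tags, inside the gene on the opposite strand, rose at both genes. Malat1 had 551, 250 and 314 in mESCs and 5970, 9278 and 13891 in mOPCs, or 15.5 ± 1.33 and 311 ± 34.8 CPM. This was a rise of 3.75 on the log2 scale (SE 0.101; edgeR, adjusted p = 1.30e-84), in a fit of 13864 genes of which 43.1% were called higher. Per 1000 sense tags of the locus there were 1.77, 2.16 and 1.78 in mESCs and 3.44, 4.25 and 4.03 in mOPCs. The antisense tags of Malat1 lay almost wholly in the first 2 kb of the gene, with 106 and 184 CPM in these bins in mOPCs and 9.83 or less in each later bin. In mESCs these bins held 7.96 and 6.58 CPM and the later ones 0.274 or less.

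At Neat1 there were 215, 81 and 96 antisense tags in mESCs and 1067, 1501 and 2251 in mOPCs, or 5.25 ± 0.407 and 51.9 ± 3.17 CPM. The rise was 2.70 (SE 0.113; edgeR, adjusted p = 1.60e-56). Sense tags rose by 4.89 in a fit scaled on its own, so that these values are not on a common scale. In CPM antisense tags rose 9.89 times and sense tags inside the annotation 32.2 times. Per 1000 sense tags the antisense count went down, from 8.73, 6.51 and 7.13 to 2.38, 2.88 and 3.06. The per-library ratios of both genes did not overlap between cell types (exact permutation p = 0.1 for each), and they went in opposite directions, although the difference between the genes was not tested. Against a median of 5.71 antisense tags per 1000 start tags over the 2173 other genes in mESCs and 12.2 in mOPCs, Malat1 had 1.99 and 4.15 and Neat1 7.62 and 2.87.

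The antisense tags of Malat1 were gathered in clusters, formed by joining positions of at least 1 CPM in at least 1 library across up to 20 bp. All 17 of them reached 1 CPM in an mOPC library and 0 did so in an mESC library. They had to differ by this rule, so that the fold change below is a description only. The cluster with the most tags in mOPCs lay at chr19:5801091-5801180, plus strand. It held 106, 45 and 46 tags in mESCs and 1529, 2416 and 3227 in mOPCs (log2 fold change 4.58, SE 0.140). The stretch around its dominant position, 5801102, is printed as read on the plus strand, with the same capitals as for the body. A second cluster, at chr19:5801853-5801910, just before the annotated start of Gm37376, held 72, 41 and 103 against 705, 1492 and 2095 tags. Gm37376 itself held 53, 29 and 31 against 358, 557 and 847 tags on its own strand.
Malat1 antisense: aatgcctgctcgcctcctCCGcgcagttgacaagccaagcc

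The 5 antisense clusters of Neat1 were single positions that reached 1 CPM in an mOPC library and in no mESC library. They too had to differ by the rule, so that their ratios are a description only. At chr19:5843196, plus strand, there were 1, 0 and 0 tags in mESCs and 65, 103 and 128 in mOPCs, a ratio of pooled CPM of 236 with a 95% counting interval from 42.0 to 9335. At chr19:5845194 there were 0, 0 and 0 against 25, 40 and 46 tags, at least 29.4-fold higher in mOPCs from a floor of 3 tags over the mESC libraries together. Among these clusters, position 5840670 had the most tags in mESCs, 10, 1 and 6 against 36, 26 and 37. By bin, the mESC antisense tags of Neat1 were densest in the second kilobase, where no cluster lay. It held 2.62 ± 0.360 CPM in mESCs and 9.84 ± 2.30 in mOPCs. In mOPCs the first kilobase was densest, with 16.7 CPM against 0.728 in mESCs. At 5845123 mOPC library 3 alone held 61 of the 71 tags of its group, and the cluster was not tested.

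Upstream of the genes, over 2 kb on the opposite strand, the values of the cell types lay closer together. Malat1 had 394, 148 and 141 upstream antisense tags in mESCs and 395, 641 and 697 in mOPCs, or 8.98 ± 1.38 and 19.1 ± 2.76 CPM. Neat1 had 171, 60 and 56 against 190, 210 and 276, or 3.72 ± 0.744 and 7.56 ± 0.992 CPM. Most of this Neat1 window lies inside Frmd8os, which is annotated on that strand from chr19:5845623 on. Tags that start from the Neat1 promoter and tags of Frmd8os cannot be told apart there. The log2 fold changes were 0.77 for Malat1 (SE 0.120; edgeR, adjusted p = 6.64e-10) and 0.68 for Neat1 (SE 0.155; edgeR, adjusted p = 2.32e-05), and 42.8% of 11556 genes were called higher. Per 1000 start tags they went down in both, from 1.16 ± 0.288 to 0.256 ± 0.0501 at Malat1 and from 5.43 ± 1.498 to 0.415 ± 0.0245 at Neat1. The main upstream antisense cluster of Malat1, at chr19:5803756-5803789, rose by 0.97 (SE 0.148; edgeR, adjusted p = 9.35e-11).

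On the strand of the gene Neat1 had a separate group of starts upstream of the main one, in the 100 bp at chr19:5845779-5845878. Its leading position, 5845812, lay 333 bases upstream of the dominant start. The window held 756, 338 and 402 tags in mESCs and 2605, 4055 and 5204 in mOPCs, or 20.7 ± 0.992 and 129 ± 10.999 CPM. It thus rose 6.23 times in CPM, less than the Neat1 locus (26.6 times), and its share of the start tags went from 2.99% ± 0.199 to 0.714% ± 0.105 (exact permutation p = 0.1). Beyond the start window the upstream stretches were almost empty. Malat1 had 87, 36 and 51 against 173, 217 and 217 sense tags there and Neat1 40, 18 and 19 against 81, 115 and 96. The single upstream sense positions with the most tags were chr19:5803514 at Malat1, with 10, 3 and 8 against 39, 47 and 51 tags, and chr19:5847109 at Neat1, with 7, 6 and 3 against 18, 35 and 33.

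Past the 3′ ends tags were rare. The 2 kb after Malat1 held 5, 3 and 4 sense tags in mESCs and 2, 6 and 7 in mOPCs, and those after Neat1 3, 0 and 2 against 7, 15 and 22. Part of the Neat1 tags fell in Gm27702, an annotated small RNA at chr19:5824652-5824707 just past the gene, with 0, 0 and 1 against 2, 9 and 11 tags. At Malat1 the last kilobase before mascRNA held 493, 157 and 233 against 2407, 3905 and 4530 tags. From the 5′ end of mascRNA to the end of the annotated gene, 292 bases, there were 1, 0 and 1 against 0, 0 and 3 tags. Within 5 bp of the 5′ end of mascRNA there were 1, 0 and 3 against 0, 0 and 2.

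Taken as clusters, the body of Malat1 held 63 and that of Neat1 53. All of these reached 1 CPM in an mOPC library, but only 19 of the Malat1 clusters and 0 of the Neat1 clusters did so in an mESC library. Those that passed through mOPC libraries alone had to differ by this rule. That all 61 and 52 that could be tested were called higher is therefore a description only, beside 45.4% of 33813 clusters of the genome. The main clusters rose by 3.00 at Malat1 and 4.50 at Neat1. The largest body cluster of Malat1 in mOPCs, chr19:5800309-5800314, which holds base 2360, rose by 4.29 (SE 0.118; edgeR, adjusted p = 1.02e-284), and the one at chr19:5797704-5797756 by 3.30 (SE 0.115). Another, at chr19:5801763-5802003, rose by 3.16 (SE 0.112), and its dominant position, 5801917, lay 1 base from the annotated 3′ end of a short Malat1 transcript.

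The body clusters of Neat1 with the most tags in mOPCs were those of the positions printed above. Like all Neat1 body clusters they passed the rule through mOPC libraries alone, so that the folds and ratios below are a description only. Cluster chr19:5844213-5844217 held 5, 4 and 10 tags in mESCs and 289, 262 and 419 in mOPCs (log2 fold change 5.06, SE 0.256). Cluster chr19:5833596-5833598 held 0, 0 and 0 against 219, 273 and 438 tags and was at least 247-fold higher in mOPCs from the floor of 3 tags over the mESC libraries. Cluster chr19:5833800-5833801 held 0, 0 and 1 against 145, 228 and 341 tags, a ratio of 568 with a counting interval from 102 to 22475. Inside the short isoform, clusters chr19:5843616-5843637 and chr19:5843404-5843415 held 16 and 10 tags over the mESC libraries and 612 and 618 over the mOPC libraries.

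Genes that act on these RNAs were described from lists, by their sense tags. Of 18 paraspeckle proteins 13 were called higher in mOPCs and 4 lower, with a median log2 fold change of 0.62, beside 44.6% and 46.0% of all genes and a median of −0.03. The RNA-binding proteins Cirbp, Taf15 and Ewsr1 rose by 2.37, 2.17 and 1.95. The core paraspeckle proteins did not move together, since Sfpq rose by 0.92, Nono fell by 0.63 and Pspc1 was at 0.15 without a call (edgeR, adjusted p = 0.106).

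Of 14 genes of 3′ end processing that bear on the choice of Neat1 isoform, 4 were called higher and 9 lower, with a median of −0.59. Nudt21, a subunit of cleavage factor Im, had 320 ± 20.4 CPM in mESCs and 45.9 ± 2.27 in mOPCs (log2 fold change −2.92, SE 0.0879; edgeR, adjusted p = 3.36e-50). Cstf2 and Cpsf2, of the cleavage machinery, were called lower at −2.71 and −2.26. Cpsf6 and Cpsf7, the partners of Nudt21 in cleavage factor Im, rose by 0.61 and 0.81. Hnrnpk, also of this list, was called lower at −1.44. Whether any of these changes bears on the Neat1 isoforms was not tested. Of 12 genes of RNase P and tRNase Z, 1 was called higher and 10 lower, with a median of −0.86. Rpp25 was at 59.5 ± 6.52 CPM in mESCs and had no tag in mOPCs, and Pop5 and Rpp40 were called lower at −2.17 and −2.02, while Elac2, the tRNase Z that trims mascRNA, was at −0.16 without a call (edgeR, adjusted p = 0.0789).

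Of 19 nuclear speckle proteins 10 were called higher and 7 lower, with a median of 0.24. The splicing factor Srsf6 rose by 2.07, and U2af1 and Rnps1 were called lower at −1.997 and −1.44. Of 15 tested neighbours on chromosome 19, 8 were called higher and 5 lower, with a median of 0.49, led by Slc25a45 (3.52), Ltbp3 (2.98) and Rela (1.85), and Frmd8, next to Neat1, rose by 0.49. Of 17 other abundant or nuclear long non-coding RNAs, 5 were called higher and 12 lower, with a median of −1.83, beside 44.6% and 46.0% of all genes. The 5 called higher, like Malat1 and Neat1, were Pvt1 (2.99), Miat (2.70), Kcnq1ot1 (2.29), Lncpint (2.16) and Firre (0.30). Meg3, Rian and Mirg, of 1 imprinted cluster, were near 0 in mOPCs, with 24.1, 78.7 and 5.19 CPM in mESCs and 0.00814, 0.0407 and 0.0985 CPM in mOPCs.

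Markers of other cell types were low or mixed. Of 4 tested astrocyte markers 1 was called higher and 2 lower, and their summed level was between 98.1 and 102 CPM in mESCs and between 97.1 and 110 in mOPCs, with Gfap below 1 CPM in both and Aqp4 without a tag in mOPCs. Of 5 neuron markers 2 were called higher and 3 lower, with sums between 17.1 and 18.7 CPM and between 148 and 175 CPM, the latter mostly from Syt1 (133 ± 15.2 CPM), while Rbfox3 was at 0.456 CPM in mOPCs. Of 3 tested microglia markers 2 were called higher and 0 lower, with sums between 39.9 and 42.7 and between 40.5 and 45.9 CPM, nearly all from Cx3cr1. The 1 tested fibroblast marker, Col1a1, was higher, with list sums between 1.79 and 2.03 and between 9.62 and 12.2 CPM, where Col3a1 and Lum had no tag in mESCs and Col1a2 none in mOPCs. Their part in the results was not tested.

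Among the genes whose start tags followed those of Malat1 most closely over the 6 libraries, out of 11290 genes with a mean of at least 10 CPM, were Bmp7 and Hcn2. Their root mean square differences in centred log2 CPM were 0.0713 and 0.0823. For Neat1 they were Gap43, Nlgn2 and 1700010I14Rik, with 0.0694, 0.0706 and 0.0769. All of these were far less abundant, with at most 46.3 CPM for those named beside Malat1 and 377 CPM for those beside Neat1 in mOPCs.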

How the data were processed

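CAGE tags of nuclear RNA were counted in 3 mESC and 3 mOPC libraries. Per the methods of the study, the authors split reads by barcode, dropped reads with ambiguous bases, trimmed linkers, aligned tags to mm10 with bowtie and kept unique alignments, so that tags from repeats are missing. The submitters' processing notes name CASAVA 1.8 and BWA 0.5.9 instead, and which aligner made the files is not given in the sources used here. The deposited values are raw counts per position and strand of where tags begin, not normalized. Tags carry no molecular identifiers, so that intervals and floors cover counting error only.

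From these counts, tags were summed with Python 3.11.15 over GENCODE vM21 genes on 22 chromosomes. The dominant start of a gene is the position inside it, or up to 500 bp upstream, with the highest mean CPM over 6 libraries. Each class of tag was fitted over all genes with edgeR 4.0.16 in R 4.3.3 (quasi-likelihood test, robust fit, TMM, filterByExpr, Benjamini-Hochberg adjusted p under 0.05) on all 6 libraries without covariates, and the script was tested on simulated data. TMM factors were computed for each class apart. The fit of body relative to start tags had library as block and TMM over both classes together. Values of single loci were compared by two-sided exact permutation tests. Replicate numbers did not pair the libraries, since deviations of same-numbered libraries correlated at 0.0164, 0.0141 and −0.00538 over 18850 genes.

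The members and lists were chosen with earlier results of these data known. By rule, the clusters named are those with the most tags (per gene and cell type 3 in the body, 2 antisense and 2 upstream), and from each list up to 3 members with the largest absolute log2 fold change past the threshold. The other genes named from lists, the further body positions, the upstream start window of Neat1 and the stretches around the end of its short isoform were chosen after their values were seen. The alternatives were DESeq2 1.42.0, other scaling, filters, windows and clustering, thinned libraries, a replicate block and each library left out. The RNA–DNA contact data of the study were not used here. Of the 3 genes most like Malat1, 1 is not reported here.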

Additional observations from a re-analysis of the deposited data

How the results depend on the processing

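Depth limits the mESC body and antisense values of Neat1, which rest on at most 542 and 215 tags in a library. For the fits of sense, start, body, antisense and upstream antisense tags and of clusters, every fold change of Malat1 and Neat1 kept its direction and its call under each alternative run, and every count of called features stayed within 1.5 times (clusters 24184 to 45983 against 31015). Over all alternatives sense tags of Malat1 ranged from 3.08 to 3.29 and of Neat1 from 4.61 to 4.95. The replicate block gave 16991 in place of 17073 calls on sense tags, with 3.20 for Malat1 and 4.89 for Neat1, and changed no call of either gene in the other fits it was run on.

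Body relative to start tags was the exception. The Malat1 value was −0.01 and turned to 0.49 (edgeR, adjusted p = 3.82e-09) with no scaling between tag classes, and ranged from −0.069 (without mESC library 3) to 0.021 with 1 library left out, positive without mESC library 1 (0.021), mOPC library 1 (0.020) or mOPC library 3 (0.0017). The Neat1 value of 0.33 ranged from 0.19 to 0.43 with 1 library left out, and its call was lost without mESC library 2 (0.19; edgeR, adjusted p = 0.372), mOPC library 2 (0.35; adjusted p = 0.0935) or mOPC library 3 (0.32; adjusted p = 0.149), and with body measured from every annotated 5′ end (0.23; adjusted p = 0.0939). The cause was not tested.

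Of 72 shares under other settings 24 moved by more than the SD of the libraries. With a start window of 100 bp the dominant share of Neat1 was 88.4% in mESCs and 85.1% in mOPCs, the body share of the locus 4.74% and 6.51% at Malat1 and 2.76% and 4.31% at Neat1, and the share of Neat1 body tags beyond the short isoform 28.8% and 56.7%. With 1000 bp the Malat1 body share was 3.31% and 4.79%, the Neat1 body share 1.67% in mESCs, and the share beyond the short isoform 47.7% and 74.2%. Counting only positions with at least 2 tags gave body shares of 3.73% at Malat1 in mESCs and 0.748% and 2.92% at Neat1, a share beyond the short isoform of 30.2% and 66.8%, antisense tags per 1000 sense tags of 1.17 at Malat1 in mESCs and 3.75 and 1.87 at Neat1, and an outside share at Neat1 of 94.1% and 91.7%. Thinned to the smallest library, mESCs had 42.1% beyond the short isoform. In each of these the mESC and mOPC means kept their order.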
